A study of Homo sapiens with 1 sample.

Results

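The MIR17HG transcript carries a group of microRNAs (miRNAs) that are cut from 1 primary RNA, and the members of this cluster other than miR-17 are described here. The members are the 10 mature miRNAs of the hairpins MIR18A, MIR19A, MIR20A, MIR19B1 and MIR92A1, 2 from each hairpin. They were taken by name from the human miRNA spots of the array, on which they are 10 of 2549 human miRNAs. The choice went by name and not by measured values, although earlier results of these data were known when it was made.

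The miRNAs were measured on 1 array of DLD-1 cells, an established human colorectal carcinoma line, transfected with the negative control plasmid pLVX-NC. The cells were grown in medium with fetal bovine serum, total RNA was taken with Trizol, and the labelled RNA carried the dye Cy3. The study asked whether the circular RNA circLONP2 changes miRNA processing, and the control plasmid is the counterpart of its overexpressing vector. Arrays of cells with altered circLONP2 were not analysed here, cells without any plasmid were not either, and with 1 array there is no replicate, no comparison between conditions and no test.

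The 5 hairpins lie with that of MIR17 inside MIR17HG, a host gene that the transcription factor MYC activates. The Drosha and DGCR8 complex cuts the hairpins out of the shared transcript and Dicer removes their loops, which leaves a 5p and a 3p arm of each hairpin. As a rule 1 arm, the guide, is loaded into an Argonaute protein and kept, while the other, the passenger, is mostly degraded. The seed near the 5′ end of the guide pairs with target mRNAs, so that miRNAs with equal seeds share many targets. The cluster is best known as an oncogene of lymphoma and is often amplified or raised in colorectal carcinoma.

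MIR17HG spans 6891 bases of chromosome 13 in the GRCh38.p14 annotation of RefSeq, at chr13:91347687-91354577. Within it, on the plus strand, MIR18A lies at chr13:91350751-91350821, MIR19A at chr13:91350891-91350972, MIR20A at chr13:91351065-91351135, MIR19B1 at chr13:91351192-91351278 and MIR92A1 at chr13:91351314-91351391. From the start of the MIR17 hairpin to the end of MIR92A1 the 6 hairpins take up 787 bases. The mature sequences of all 10 members, as RefSeq gives them, are shown first because seed and arm order the results. They read 5′ to 3′ and the capitals mark the seed, bases 2 to 8.
hsa-miR-92a-3p: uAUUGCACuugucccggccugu
hsa-miR-92a-1-5p: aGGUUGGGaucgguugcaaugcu
hsa-miR-19b-3p: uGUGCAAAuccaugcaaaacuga
hsa-miR-19a-3p: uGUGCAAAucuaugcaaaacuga
hsa-miR-19b-1-5p: aGUUUUGCagguuugcauccagc
hsa-miR-19a-5p: aGUUUUGCauaguugcacuaca
hsa-miR-20a-5p: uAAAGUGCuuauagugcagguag
hsa-miR-20a-3p: aCUGCAUUaugagcacuuaaag
hsa-miR-18a-5p: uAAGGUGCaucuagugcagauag
hsa-miR-18a-3p: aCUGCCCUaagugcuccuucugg

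The guide arms of the cluster fall into 4 seed families, those of miR-17, miR-18, miR-19 and miR-92a. hsa-miR-19a-3p and hsa-miR-19b-3p carry the same seed and differ at a single base, U11C from hsa-miR-19a-3p to hsa-miR-19b-3p, with positions counted from 1 at the 5′ end. The passenger arms hsa-miR-19a-5p and hsa-miR-19b-1-5p also share a seed. The mature hsa-miR-19b-3p and hsa-miR-92a-3p are each encoded at 2 loci, the second being MIR19B2 or MIR92A2 in the miR-106a-363 cluster on chromosome X. Their signals can therefore not be assigned to chromosome 13 alone.

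The array gave each miRNA 20 spots, spread over several probes, and the values below are spot brightness in arbitrary units after the scanner software subtracted the background. The spots are technical repeats on 1 array, so an SD or standard error over them leaves out any variation between cultures. Standard errors of log2 signals and arm differences use the spread of spots within each probe. They therefore also leave out disagreement between the probes of a miRNA. Brightness depends on the probe as well as on the RNA amount, so an order of miRNAs is an order of brightness only. Probe sequences were not available, so whether a probe also binds miRNAs of similar sequence could not be assessed. The array reads the RNA of all cells together, and fewer cells with a miRNA cannot be told apart from less of it per cell. Values below 1 were set to 1 for log2 signals, which are averages over spots and probes. From each the log2 of the scaling brightness was taken off, 248.8, the value that 75% of the probes counted as detected did not exceed. No spot was saturated, and 3 of the 200 spots of the members were marked as outliers and left out. All 5 miRNAs listed as epithelial markers (miR-200a-3p, miR-200b-3p, miR-200c-3p, miR-141-3p and miR-429) were detected, with log2 signals from -3.99 to 3.59. Of 3 intestinal markers only miR-215-5p was detected. Of the markers of blood, muscle, liver, brain or stroma 7 of 12 (58.3%) were also detected, beside 56.8% of all human miRNAs. Among these 7, miR-124-3p of brain was the brightest at -1.73. Their spots well above background ran from 2 of 20 for miR-133a-3p to all 20 for miR-124-3p and for miR-145-5p and miR-126-3p, listed for stroma. The red cell markers miR-451a and miR-144-3p, the muscle marker miR-1-3p, the liver marker miR-122-5p and the stromal marker miR-143-3p were not detected.

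The members had a wide range of brightness. It ran from hsa-miR-92a-3p, whose lowest spot had a brightness of 496.9, down to the 5p arms of MIR18A and MIR19A, whose mean brightness was below 0. The software's detection flag was set for 7 of the 10 members and for 56.8% of all human miRNAs. The members without it were hsa-miR-18a-5p, hsa-miR-19a-5p and hsa-miR-19a-3p. Background was read from 1000 negative control spots, whose 99th percentile was 12.5. The brightest probe was at least 2-fold above that level for 5 members, against 44.6% of all human miRNAs. They were hsa-miR-18a-3p, hsa-miR-20a-5p, hsa-miR-20a-3p, hsa-miR-19b-3p and hsa-miR-92a-3p. Of the members, only hsa-miR-19b-3p and hsa-miR-92a-3p were at least 4-fold above it, beside 34.2% of all human miRNAs. The 7 detected members had a median percentile of 25.7 among the 1448 detected human miRNAs, whose own median is 50.

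**Figure D1:**
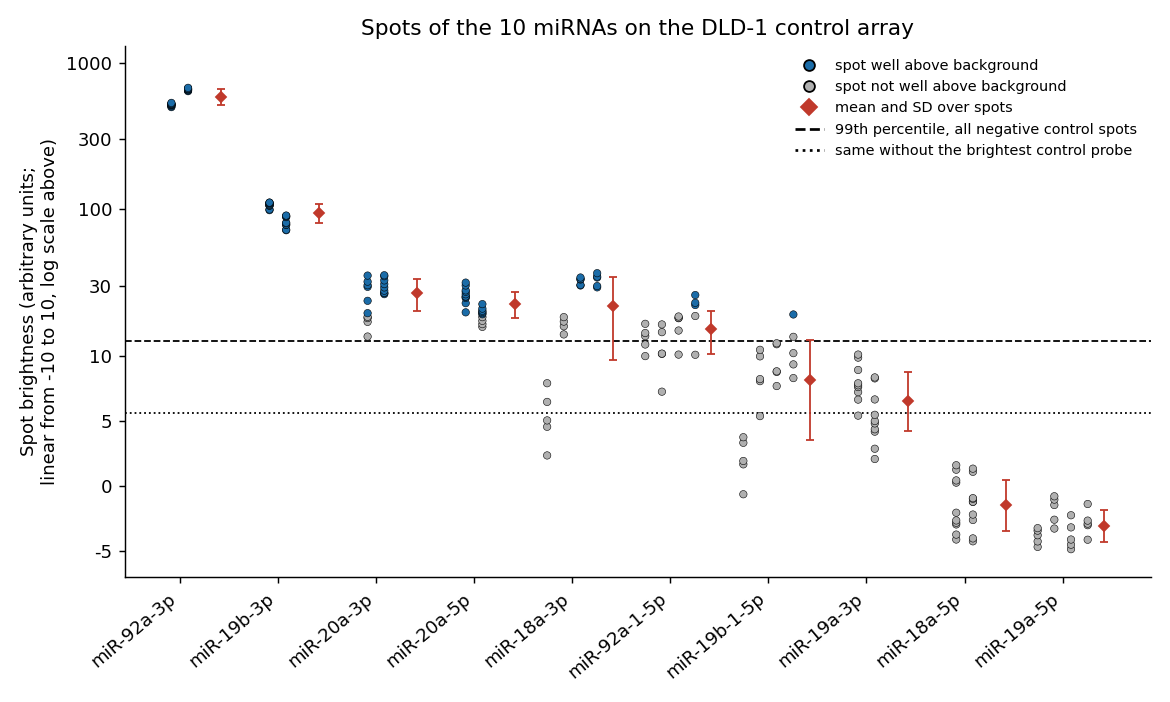
Brightness of every spot used for the 10 miRNAs, in arbitrary units on an axis that is linear up to 10 and logarithmic above, with the spots of each probe in 1 column. Red diamonds and bars give the mean and SD over spots, and the lines the negative control level, 12.5, or 5.58 without the brightest control probe; hsa-miR-92a-3p and hsa-miR-19b-3p are clear of both lines in every spot.

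hsa-miR-92a-3p, the guide of MIR92A1, which represses the integrin gene ITGA5 in endothelial cells, was the brightest member. Its 20 spots had a lowest brightness of 496.9, a median of 584.9 and a highest of 672.9. All were brighter than any spot of the other members. The mean was 585.5 ± 72.6 (SD over 20 spots), all 20 spots were well above background by the software's flag, and the log2 signal was 1.22 (standard error 0.01 from the spots). The 2 probes had means of 515.4 and 655.7, a log2 difference of 0.35 (standard error 0.01), so most of the SD lay between the probes. The brighter probe was 52.5-fold above the negative control level. The miRNA ranked 152 of the 1448 detected ones, at a percentile of 89.5, and was the only member above the 75th percentile of detected miRNAs. It gave 76.6% of the summed total signal of the members, which itself was 0.133% of that of all human miRNAs.

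The passenger arm of the same hairpin, hsa-miR-92a-1-5p, was detected close to background. The lowest spot had a brightness of 7.23, the median was 14.6 and the highest 25.9. Its spots thus lay on both sides of the negative control level. The mean was 15.2 ± 4.97 (SD over 20 spots), 3 spots were well above background and the log2 signal was -4.11 (standard error 0.09). Its 4 probes had means of 11.7, 13.2, 15.9 and 19.9, and the brightest was 1.60-fold above the negative control level.

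hsa-miR-19b-3p, a guide of the miR-19 family, was the second brightest member. Its spots ran from a lowest brightness of 71.8 over a median of 94.4 to a highest of 110.8. They overlapped with the spots of no other member. The mean was 94.2 ± 13.9 (SD over 20 spots), all 20 were well above background and the log2 signal was -1.42 (standard error 0.02). The means of its 2 probes were 81.9 and 106.5, and the brighter was 8.52-fold above the negative control level. With rank 566 it stood at a percentile of 60.9, and with hsa-miR-92a-3p it made up the 2 members above the median of detected miRNAs.

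hsa-miR-19a-3p, which shares all but 1 base with hsa-miR-19b-3p, was not detected. The lowest spot was 2.06, the median 6.63 and the highest 10.2, so that all were below the negative control level. No spot was well above background, although 18 of 20 were positive and significant over it by the software's weaker flag. The mean was 6.48 ± 2.27 (SD over 19 spots) and the log2 signal -5.35 (standard error 0.11). Against the lowest probe on the array that was well above background, with a brightness of 16.0, hsa-miR-19b-3p was at least 5.83-fold brighter than hsa-miR-19a-3p.

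The miR-19 passenger arms were at or near background. hsa-miR-19b-1-5p was detected, with a lowest spot of -0.649, a median of 8.51 and a highest of 19.1. A single spot of its 20 was well above background. The mean was 8.11 ± 4.62 (SD over 20 spots) and the log2 signal -5.23 (standard error 0.12). Its 4 probes disagreed, with means from 1.99 to 12.1 and a log2 difference of 2.47 (standard error 0.41) between brightest and dimmest, and even the brightest was 0.968-fold of the negative control level. hsa-miR-19a-5p was not detected, and its spots ran from -4.87 over a median of -3.22 to -0.804. All 20 were below the floor of 1, so it has no measured log2 level.

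hsa-miR-20a-5p is the guide of MIR20A and belongs to the family of miR-17, which represses cell cycle regulators such as CDKN1A. Its spots had a lowest brightness of 15.7, a median of 21.7 and a highest of 31.5. All 20 were above the negative control level, and 16 were well above background. The mean was 22.5 ± 4.56 (SD over 20 spots) and the log2 signal -3.49 (standard error 0.04). The 2 probes had means of 19.0 and 26.1, of which the brighter was 2.09-fold above the negative control level, just past the margin. It ranked 1077, at a percentile of 25.7.

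The other arm, hsa-miR-20a-3p, differed from it by less than the spread over spots. Its lowest spot was 13.5, its median 27.7 and its highest 35.4. These overlapped with most of the range of hsa-miR-20a-5p. The mean was 26.7 ± 6.64 (SD over 19 spots), 15 of 20 spots were well above background and the log2 signal was -3.26 (standard error 0.08). The brighter probe was 2.40-fold above the negative control level and the rank 1006, at a percentile of 30.6.

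hsa-miR-18a-5p, the guide of MIR18A, which represses the connective tissue growth factor gene, was not detected. The lowest spot was -4.26, the median -1.65 and the highest 1.58. In 16 of 20 spots the brightness was at or below the floor of 1, and no spot was positive and significant over background. Both probes had negative means, so the log2 signal of -7.89 (standard error 0.04) is set almost entirely by the floor.

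Its partner hsa-miR-18a-3p was detected with probes that disagreed. The lowest spot was 2.33, the median 29.2 and the highest 36.5. The 4 probes had means of 5.24, 16.3, 32.2 and 32.9, and the spots of the 2 dimmer probes lay apart from each other and from those of the 2 brighter ones, which overlapped. The brightest was 2.63-fold above the negative control level, and the log2 difference between brightest and dimmest was 2.75 (standard error 0.31). Over all probes the mean was 21.9 ± 12.3 (SD over 19 spots), with 11 of 20 spots well above background, a log2 signal of -3.87 (standard error 0.08) and a percentile of 19.4.

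In order of log2 signal, 2 of the 6 steps between neighbours among the 7 detected members were larger than the SD over spots. They were the steps from hsa-miR-92a-3p to hsa-miR-19b-3p (2.64, SD 0.28) and from hsa-miR-19b-3p to hsa-miR-20a-3p (1.84, SD 0.46). At the other 4 steps the spots of the neighbours overlapped, and the 3 members that were not detected were given no place in the order. Among these, hsa-miR-20a-3p, hsa-miR-20a-5p, hsa-miR-18a-3p and hsa-miR-92a-1-5p followed each other at steps from 0.23 to 0.38, and hsa-miR-92a-1-5p exceeded hsa-miR-19b-1-5p by 1.12 (SD 1.21). The detected members had the same order in the deposited log2 values, from 7.74 for hsa-miR-92a-3p and 4.72 for hsa-miR-19b-3p down to 2.33 for both hsa-miR-92a-1-5p and hsa-miR-19b-1-5p, the lowest value of any detected miRNA. The 3 members not detected shared the value 2.32 in that table, its lowest.

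**Figure D2:**
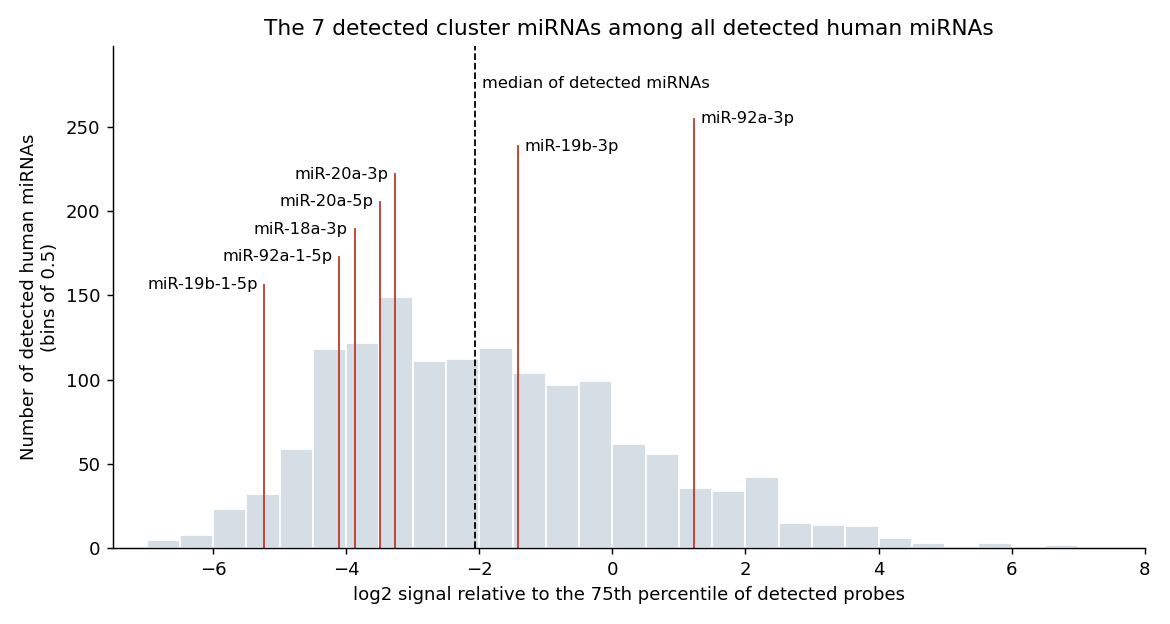
Distribution of the scaled log2 signal over the 1448 detected human miRNAs in bins of 0.5, with a red line at each of the 7 detected cluster miRNAs (line height carries no value). hsa-miR-19b-3p at -1.42 and hsa-miR-92a-3p at 1.22 lie above the dashed median of -2.06, and the other 5 lie below it.

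The arms of each hairpin were set side by side, each read by its own probes. For MIR19B1 and MIR92A1 the 3p sequence is also encoded on chromosome X, while the 5p sequence is not. Their 3p signals can therefore include RNA from a second precursor, and their arm differences cannot be assigned to 1 hairpin. In MIR92A1 the measured log2 difference was -5.33 (5p minus 3p, standard error 0.09 from the spots) in favour of the guide hsa-miR-92a-3p. The mean signal of hsa-miR-92a-1-5p lay below the lowest probe well above background, and hsa-miR-92a-3p was 36.4-fold brighter than that probe. This fold is not a lower bound between the arms. The brightest probe of hsa-miR-92a-1-5p, at 19.9 with 3 of 5 spots well above background, was itself brighter than that lowest probe. In MIR19B1 the measured log2 difference, again 5p minus 3p, was -3.81 (standard error 0.12) in favour of the guide hsa-miR-19b-3p, and, with fewer than 0.5 of the spots of any hsa-miR-19b-1-5p probe well above background, it was at least 5.83-fold brighter. Both measured differences are taken against an arm close to background, so the fold against the lowest probe well above background is given with each.

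In MIR20A the arms were close. Their log2 difference, 5p minus 3p, was -0.23 (standard error 0.09), which is 1.18-fold in favour of hsa-miR-20a-3p and smaller than the SD of 0.50 over spots. In MIR18A the brighter arm was not the usual guide, since hsa-miR-18a-3p was detected and hsa-miR-18a-5p was not. As a bound from the mean over its 4 probes, hsa-miR-18a-3p was at least 1.06-fold brighter. Its dimmest probe, at 5.24, lay below the reference of 16.0, and the next, at 16.3, was close to it. No fold is given for MIR19A, whose arms were both not detected.

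Across the members, detection was flagged for 3 of 5 textbook guide arms and 4 of 5 passenger arms. By arm it was flagged for 3 of 5 5p arms and 4 of 5 3p arms, beside 56.8% of all human miRNAs. The passenger count includes hsa-miR-19b-1-5p, with 1 of 20 spots well above background. The median log2 signal was -5.23 over the 5p arms and -3.26 over the 3p arms, beside -4.27 over all human miRNAs. Over the guides it was -3.49 and over the passengers -4.11. hsa-miR-17-5p and hsa-miR-17-3p of the same transcript were both detected, at -3.25 and -2.53. Along the transcript, the brightest signals belonged to the 3p arms of MIR19B1 and MIR92A1, the last hairpins, and both of these mature sequences are also encoded on chromosome X.

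**Figure D3:**
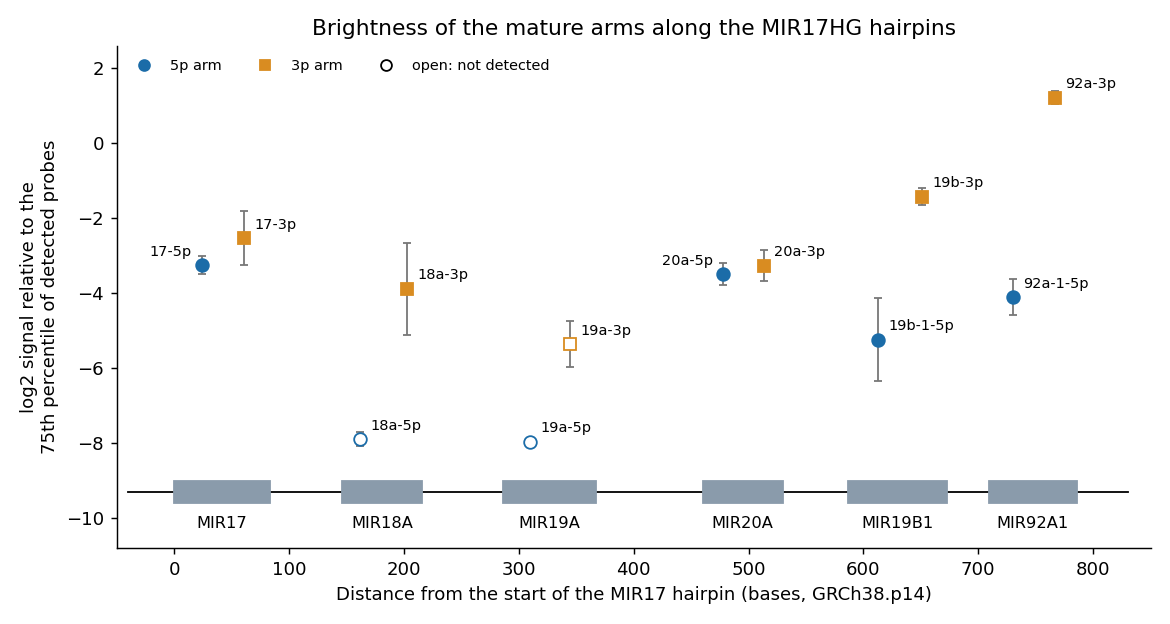
Log2 signal of the 12 mature arms, with the SD over spots as bars, against their distance in bases from the start of the MIR17 hairpin in GRCh38.p14, with the 6 hairpins drawn to scale as boxes. The 3p arms of MIR19B1 and MIR92A1 stand highest at -1.42 and 1.22, and the open symbols of MIR18A and MIR19A mark arms that were not detected.

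The same locus pair could be looked at through the passenger arms, whose sequences differ between chromosomes 13 and X. Of MIR19B1 and MIR19B2, hsa-miR-19b-1-5p was detected at -5.23 and hsa-miR-19b-2-5p, all of whose probes were at the floor, was not. Of MIR92A1 and MIR92A2, hsa-miR-92a-1-5p had a log2 signal of -4.11 and hsa-miR-92a-2-5p was detected at -5.13, at a percentile of 4.11. By the brightest probe the order was the opposite, since that of hsa-miR-92a-2-5p had a brightness of 61.2, 4.90-fold above the negative control level, and 6 of the 20 spots of this miRNA were well above background, against 19.9, 1.60-fold and 3 spots for hsa-miR-92a-1-5p. The whole miR-106a-363 cluster on chromosome X had 3 of 9 arms detected and a median log2 signal of -7.30, and hsa-miR-106a-5p had no spots under that name. In the miR-106b-25 cluster on chromosome 7, 5 of 6 arms were detected and the median was -3.09. Over all human miRNAs these values were 56.8% and -4.27.

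Other miRNAs with the seeds of the guide arms are shown next, restricted to those closest to a member in sequence. They show how few bases separate miRNAs of quite different brightness. Binding of a probe to such near relatives could not be assessed, so a signal may include RNA of another family member. Capitals again mark the seed.
hsa-miR-17-5p: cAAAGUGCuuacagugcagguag
hsa-miR-20b-5p: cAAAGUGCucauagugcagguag
hsa-miR-106b-5p: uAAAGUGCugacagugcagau
hsa-miR-93-5p: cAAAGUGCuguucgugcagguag
hsa-miR-18b-5p: uAAGGUGCaucuagugcaguuag
hsa-miR-92b-3p: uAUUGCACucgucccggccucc
hsa-miR-25-3p: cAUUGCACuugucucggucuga

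In the miR-17 seed family all 7 miRNAs on the array were detected, beside 56.8% of all human miRNAs. hsa-miR-20a-5p held the fourth place by brightness. hsa-miR-93-5p was the brightest at -0.61 and exceeded hsa-miR-20a-5p by 2.88 on the log2 scale, which is 7.36-fold and beyond the SD of 0.37 over spots. hsa-miR-17-5p, which differs from hsa-miR-20a-5p by U1C and U12C, was 1.18-fold brighter, a log2 difference of 0.24 that was smaller than the SD of 0.38. For hsa-miR-106b-5p, which differs by U10G, U12C and G20A and is 21 bases long where hsa-miR-20a-5p has 23, the log2 difference to hsa-miR-20a-5p was 0.41 beside an SD of 0.38. hsa-miR-20a-5p was in turn at least 1.38-fold brighter than hsa-miR-20b-5p, which differs from it by U1C and U10C. hsa-miR-526b-3p at -4.08 and hsa-miR-519d-3p at -4.21 were the other miRNAs of this seed. Like hsa-miR-20b-5p, each of them was detected close to background, with 1 spot well above background. The brightest probes of these miRNAs were 1.21- to 1.26-fold of the negative control level.

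In the miR-92a seed family 4 of 6 miRNAs were detected, beside 56.8% of all human miRNAs, and hsa-miR-92a-3p was the brightest. hsa-miR-25-3p of the miR-106b-25 cluster followed at -0.75, with hsa-miR-92a-3p 3.93-fold brighter, a log2 difference of 1.98 (SD 0.24). hsa-miR-92b-3p, which differs from hsa-miR-92a-3p by U10C, G21C and U22C, had a log2 signal of -3.33, and hsa-miR-92a-3p was 23.6-fold brighter. The remaining detected miRNA of this seed, hsa-miR-367-3p, lay between hsa-miR-25-3p and hsa-miR-92b-3p at -1.99. hsa-miR-363-3p and hsa-miR-32-5p of the same seed were not detected.

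The miR-18 seed was detected in none of its 3 miRNAs. hsa-miR-18b-5p, which differs from hsa-miR-18a-5p by A20U, had a log2 signal of -7.71, and hsa-miR-4735-3p one of -7.92. The seed of the miR-19 guides occurred only in hsa-miR-19a-3p and hsa-miR-19b-3p, and that of their 5p arms in 3 miRNAs, of which hsa-miR-19b-1-5p alone was detected. No other miRNA on the array with a sequence in RefSeq had the seed of hsa-miR-18a-3p, hsa-miR-20a-3p or hsa-miR-92a-1-5p.

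**Figure D4:**
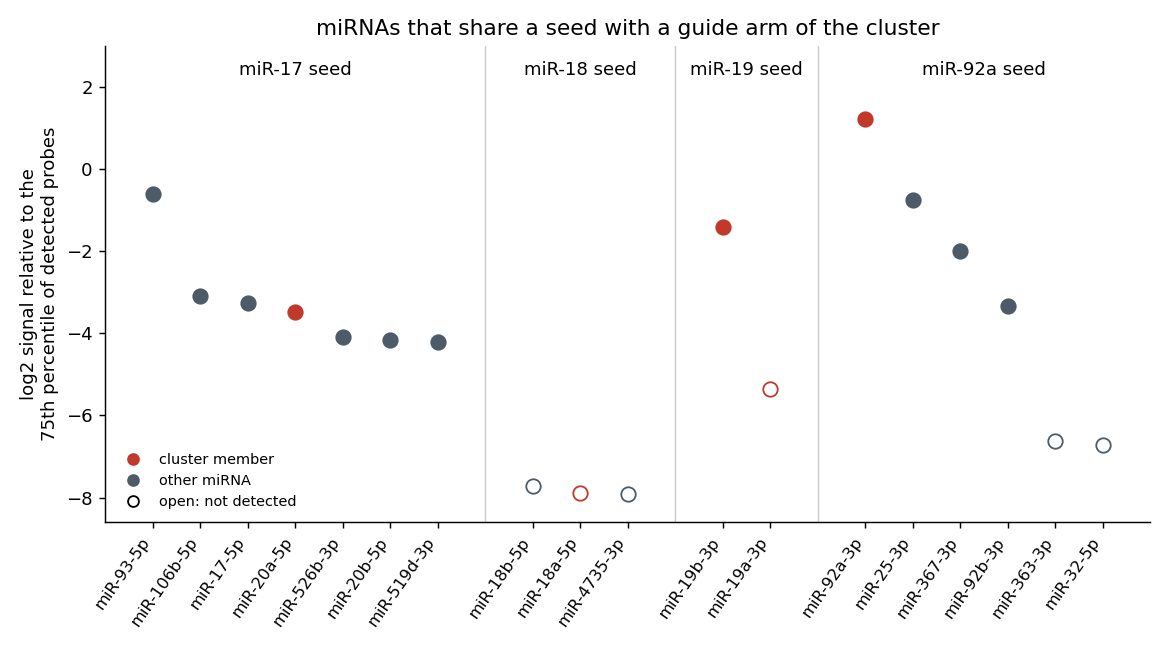
Scaled log2 signal of every miRNA on the array with the seed of a cluster guide arm, in red for cluster members and grey for others, with open symbols for miRNAs not detected. hsa-miR-92a-3p at 1.22 and hsa-miR-19b-3p at -1.42 lead their families, hsa-miR-20a-5p at -3.49 is below hsa-miR-93-5p at -0.61, and no miRNA of the miR-18 seed was detected.

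Over the whole array, detection rose with the share of G and C bases in the mature miRNA, which could be computed for 2248 of the 2549 human miRNAs. It was 22.9% of the 332 miRNAs with over 30% and up to 40% G and C, and 66.3% of the 510 with over 50% and up to 60%. Of the members, 5 lie in the first of these ranges, and hsa-miR-19b-3p, hsa-miR-20a-5p and hsa-miR-20a-3p among them were detected. Within it, hsa-miR-19b-3p (39.1% G and C) stood at a percentile of 94.4, hsa-miR-20a-3p (36.4%) at 87.8 and hsa-miR-20a-5p (39.1%) at 86.6. These are higher than their percentiles among all detected miRNAs, although the reference here also holds miRNAs that were not detected. In the same reference hsa-miR-19a-3p (34.8%), which was not detected, stood at 73.6.

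All 3 members with over 50% G and C were detected. Among miRNAs of that range hsa-miR-92a-3p (54.5%) stood at a percentile of 93.2, hsa-miR-18a-3p (56.5%) at 46.4 and hsa-miR-92a-1-5p (52.2%) at 43.4. Between 40% and 50%, hsa-miR-19b-1-5p (47.8%) stood at 49.6 and hsa-miR-18a-5p (43.5%) was not detected. What base composition contributes to the brightness of a member was not tested.

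**Figure D5:**
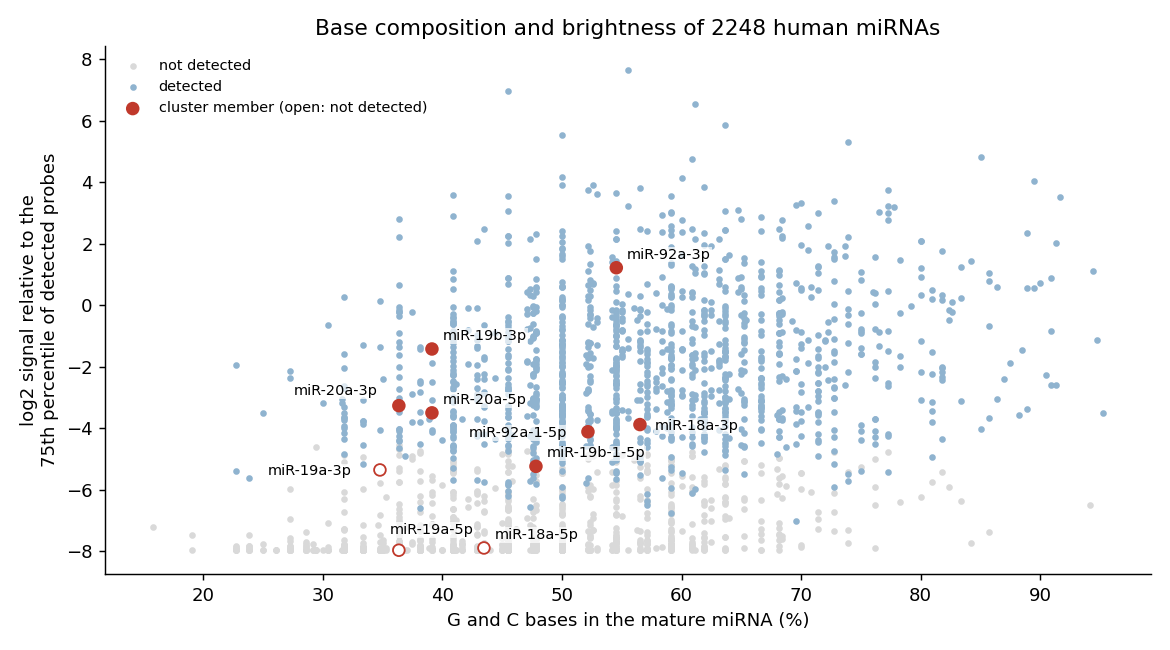
Scaled log2 signal against the percentage of G and C bases in the mature sequence for the 2248 human miRNAs with a sequence in RefSeq, with blue points for detected and grey for not detected miRNAs. The red cluster members lie between 34.8% and 56.5%. hsa-miR-19b-3p, hsa-miR-20a-5p and hsa-miR-20a-3p are brighter than most miRNAs of like composition, most of which were not detected.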

How the data were processed

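Total RNA of DLD-1 cells transfected with pLVX-NC was hybridized to 1 one-colour miRNA array. By the deposited labels Cy3-pCp was ligated to the miRNA with T4 RNA ligase, but the methods name labelled cDNA of double strands. The deposited scanner file holds intensity values per spot on a linear scale and flags of 0 or 1, made by the authors with Agilent Feature Extraction 11.0.1.1, which subtracted the background. A deposited table holds log2 values, quantile normalized by the authors in GeneSpring GX over a set of arrays that the methods do not name.

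Outlier spots (4.06%) were dropped, brightness was floored at 1, and its log2 was averaged by probe and then by miRNA. The 75th percentile of the 2567 detected probes was subtracted. Detection was the software's flag. A percentile is the share of detected human miRNAs that were dimmer. A bound ("at least") sets a dim miRNA at the higher of its own signal and the lowest probe for which 0.5 or more of the spots were well above background. Sequences and positions came from RefSeq (GRCh38.p14) and matched 2248 names. By rule the text names all members, both arms of miR-17, miRNAs sharing a member's seed or differing from it by at most 3 bases, and the other-locus arms of miR-19b and miR-92a. The members, marker lists and paralog lists were chosen with earlier results of these data known. Alternatives changed the detection criterion, background level, margin, signal column, scaling, probe summary, outlier handling and normexp correction (limma 3.58.1, R 4.3.3, offset 50). Python 3.11.15, numpy 2.4.6 and pandas 2.3.3 were used. The summary was tested on simulated spots without the floor of 1, which leaves values near the floor untested. The number of arrays, 1, limits the precision, and no test was made.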

Additional observations from a re-analysis of the deposited data

How the results depend on the processing

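Of the 10 members, 7 were detected by the software's flag, and 4 when every spot of a probe had to be well above background. The other detection criteria gave 6 and 8, and the shares of all human miRNAs under these alternative criteria are not given here. The count of 5 members at least 2-fold above the negative control level, beside 44.6% of all human miRNAs, changed with the setting, as did that share. It was 2 with a 4-fold margin (34.2% of all human miRNAs) and 2 after normexp correction (26.7%), where an added offset of 50 narrows ratios. It was 3 with the lowest probe well above background as the level (41.0%) and 3 with the mean over probes (41.7%). Without the brightest of the 7 negative control probes it was 7 (57.5%). With the 4-fold margin and after normexp correction the members left were hsa-miR-19b-3p and hsa-miR-92a-3p. The median percentile of 25.7 became 57.8 with all human miRNAs as the reference, which adds 1101 that were not detected, and 18.2 with a stricter detection criterion for members and reference. The arm difference of MIR19B1, -3.81, was -1.17 after normexp correction, -4.96 with the software's total signal and -2.39 in the deposited log2 values, and that of MIR92A1, -5.33, was -3.09 after normexp correction. Beyond these constructions the cause was not tested. The 3p arm was brighter under every alternative run for MIR20A, MIR19B1 and MIR92A1, and the difference in MIR20A ranged from -0.26 to -0.08. The bound of 1.06-fold for hsa-miR-18a-3p over hsa-miR-18a-5p was 2.05 with the brightest probe in place of the mean over probes and 1.12 with outlier spots kept. Scaling to the percentile over all probes raised every log2 signal by 1.79. Of 37 other alternative log2 signals of single members 13 moved by more than the spread over spots, as did 3 of 35 percentiles. Most of the 13 came from normexp correction, which moved every member except hsa-miR-92a-3p. With outlier spots kept, hsa-miR-19a-5p moved because its spots, all at the floor, had an SD of 0. The rest were hsa-miR-20a-5p, hsa-miR-19b-3p and hsa-miR-92a-3p with the software's total signal. No paired analysis was possible because a single array was analysed. Spots at the floor have no order, so hsa-miR-18a-5p and hsa-miR-19a-5p could not be ranked, and levels near the negative controls cannot be told apart from background at this signal.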
